A study of Rattus norvegicus with 21 samples.

Results

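Calcium, chloride, acid-sensing and cyclic-nucleotide channel genes were examined in mesenchymal stem cells of rat bone marrow, stromal cells that can form bone, cartilage and fat. The genes were taken by symbol: those that begin with Cacna, Cacnb, Cacng, Clcn, Clca, Asic, Hcn, Cnga, Cngb or Ano followed by a digit. They numbered 59 of the 9998 genes in the table used here, which runs alphabetically up to Map2k1. RNA of wild-type cells was sequenced in 7 groups of 3 libraries. Control carried an empty treatment label. The other 6 groups carried the treatment SFSN, which the series title spells out as self-feedback synaptic networks, and a cell fate each: endothelial cells (SFSN-EC), osteoblasts (SFSN-Ot), tendon cells (SFSN-TC), fibroblasts (SFSN-FB), neuron-like cells (SFSN-Neu) and adipocytes (SFSN-Adipo). Age, sex and strain of the donor rats, and what the SFSN treatment consists of, were not given in the sources used here.

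Voltage-gated calcium channels open when the membrane depolarizes. A pore subunit (Cacna1 genes) sets the type of current, and beta, alpha2delta and gamma subunits set how much channel reaches the membrane and how it gates. L-type pores carry long-lasting currents and couple depolarization to contraction and transcription, P/Q- and N-type pores serve transmitter release, and T-type pores open near the resting potential. Acid-sensing channels (ASIC) are sodium channels opened by extracellular protons. HCN channels carry the hyperpolarization-activated pacemaker current and bind cyclic nucleotides, as the CNG channels of sensory cells do. CLC proteins are chloride channels of the surface membrane or chloride-proton exchangers of endosomes and lysosomes. Anoctamins are calcium-activated chloride channels or lipid scramblases. Mesenchymal stem cells are not electrically excitable as neurons are, and use calcium entry and calcium release in growth and differentiation.

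The expected counts of the libraries summed to 8113600 to 8934240 over the genes in hand, a part of the full depth. Levels are given as CPM, counts scaled to the same total by TMM, within a gene, and as TPM, the authors' length-corrected transcript abundance, between genes. Differences are log2 differences ± SE from edgeR's quasi-likelihood test on all 21 libraries, and "rose", "fell" and "called" are used only at a Benjamini-Hochberg adjusted p under 0.05 over the 6659 genes tested. The labels do not say whether replicates came from different cultures or rats, and the p-values here cover only the variation seen among these libraries, which could be technical. SFSN-EC 1 and SFSN-Neu 2 stood apart most from their replicates (chi-square per degree of freedom 41.43 to 42.58 for SFSN-EC 1 and 21.56 to 23.98 for SFSN-Neu 2, against 2.165 and 2.829 between the other 2 libraries of those groups). Smaller gaps were those of SFSN-FB 1 (11.58 and 14.16, against 3.529), SFSN-Ot 3 (9.013 and 13.52, against 3.072) and Control 1 (9.06 and 8.473, against 2.38). The summed CPM of the 59 genes was 950.2 in SFSN-EC 1 and 952 in SFSN-Neu 2, against 1091 to 1318 in the other SFSN libraries and 1107 to 1254 in Control. Sums of several marker lists differed between Control and SFSN, and in some lists members went in different directions. The summed TPM of 7 mesenchymal stem cell markers was 2935 to 3271 in Control and lay between 1835 and 2563 in SFSN. That of 5 smooth muscle markers was 14087 to 14521 against 9842 to 11436. In group means Itgb1 (1930 TPM in Control, 1269 to 1534 in SFSN), Cxcl12 (505 against 280 to 338) and Cd44 (293 against 215 to 261) were lower in every SFSN group. Eng (43.5 against 48.4 to 54.6), Cd9 (269 against 274 to 309) and Kitlg (16.0 against 17.7 to 25.5) were higher in every one, and Lepr lay on both sides. These marker values are TPM, which is not scaled by TMM and gave more higher calls in SFSN, as given below. Small differences such as that of Cd9 were not tested and may not hold on the CPM scale. The sum of 10 macrophage markers was 609.9 to 621 in Control and 639 to 1159 in SFSN, that of 6 adipocyte markers 115.1 to 123 against 247 to 997 and that of 6 endothelial markers 4.94 to 6.06 against 1.87 to 3.46. The macrophage sum was mostly Lyz2 (526 TPM against 513 to 957 in group means), which lay on both sides, as did Cd68, Csf1r and C1qb. The endothelial sum in Control was mostly Flt1 (4.09 TPM against 0.64 to 0.84). Icam2 (0.73 against 0.54 to 0.72) was lower and Esam (0.69 against 0.75 to 1.21) higher in every SFSN group. The sums of osteoblast markers (9352 to 10174 against 6813 to 10210), skeletal muscle markers (87.7 to 101 against 24.4 to 88.6), neuron markers (2.07 to 2.62 against 1.15 to 2.44), glial markers (0.37 to 0.4 against 0.27 to 1.06), epithelial markers (1.85 to 2.57 against 1.44 to 3.49) and erythroid markers (0.3 to 0.51 against 0.12 to 0.91) overlapped. The osteoblast sum was mostly Col1a1, with group means of 9607 TPM in Control and 8346 to 9885 in SFSN. Its other members had higher means in every SFSN group. These were Ibsp (3.42 TPM against 78.6 to 138), Alpl (35.2 against 102 to 139), Dmp1 (1.21 against 1.68 to 3.92) and Ifitm5 (0.23 against 0.26 to 0.54). The endothelial markers Cdh5, Kdr and Emcn and the neuronal markers Elavl4, Gad1, Gad2, Gap43 and Camk2a had at most 10 counts in every library, those of SFSN-EC and SFSN-Neu included. The part of these markers in the results below was not tested, and in bulk RNA fewer cells of a type and less RNA per cell cannot be told apart.

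Of the 59 genes 27 passed the filter on low counts and were tested. They comprised 7 of 10 calcium channel pores, 2 of 4 alpha2delta, 3 of 4 beta and 0 of 6 gamma subunits, 2 of 5 ASIC, 2 of 4 HCN, 0 of 5 CNG, 6 of 7 CLC, 0 of 5 CLCA and 5 of 9 anoctamin genes. The other 32 did not exceed 10.18 counts in any library. Among them were the skeletal muscle pore Cacna1s, the R-type pore Cacna1e, the retinal pore Cacna1f, Cacna2d3 and Cacna2d4, Cacnb4, the gamma subunit genes Cacng1, Cacng4, Cacng5, Cacng6, Cacng7 and Cacng8, and the acid-sensing genes Asic2, Asic4 and Asic5. Also below the filter were Hcn3, the CNG genes Cnga1, Cnga3, Cnga4, Cngb1 and Cngb3, and the skeletal muscle chloride channel gene Clcn1. The CLCA genes Clca1, Clca2, Clca4, Clca4l and Clca5, and Ano2, Ano3, Ano4 and Ano7, were below it too. Ano4, Asic5, Cacna2d4 and Cacng5 had no count in any library.

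The highest levels were those of anoctamins, accessory subunits and a lysosomal exchanger. Ano10, an anoctamin, ranged from 36.8 to 56.3 TPM over the 21 libraries, and Ano6, the calcium-activated scramblase that exposes phosphatidylserine, from 27.1 to 55.3 TPM. Next came the alpha2delta gene Cacna2d1 (14.9 to 35.3 TPM), the lysosomal exchanger gene Clcn7 (15.3 to 26.5 TPM), Ano8, which tethers the endoplasmic reticulum to the surface membrane (11.9 to 20.8 TPM), the beta subunit gene Cacnb3 (12.7 to 20.2 TPM) and, in the SFSN groups, Asic3. No calcium channel pore exceeded 5.05 TPM in any library. The highest of the pores were the T-type gene Cacna1g (2.36 to 5.05 TPM) and the cardiac and smooth muscle L-type gene Cacna1c (2.25 to 4.35 TPM), whose ranges overlapped. Low levels were those of Ano5 (0.04 to 0.25 TPM), Asic1 (0.08 to 0.33 TPM) and, in the SFSN groups, Hcn4 (0.03 to 0.28 TPM, against 0.92 to 1.04 in Control), with ranges that overlapped.

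**Figure D1:**
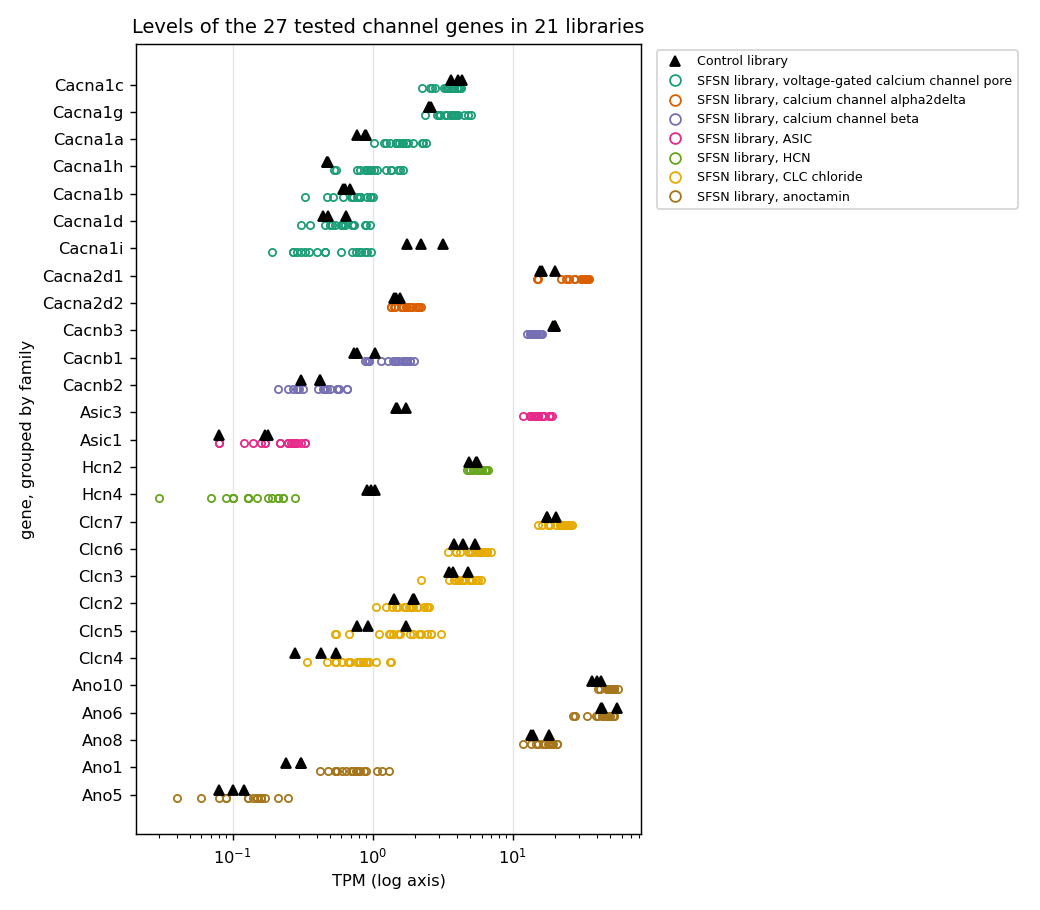
TPM of the 27 tested channel genes (log axis), 1 row per gene grouped by family, with triangles for the 3 Control libraries and circles for the 18 SFSN libraries. Asic3 shows triangles far left of its circles, Hcn4 and Cacna1i the reverse, and most other rows overlap.

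Against Control, 13 of the 27 tested genes were called in the mean of the 6 SFSN groups, 9 higher and 4 lower, where 45.9% of all genes tested were called (23.5% higher and 22.4% lower). The share of the channel genes called, 48.1%, was thus near that of all genes. The median log2 difference was 0.08 over the 27 genes and 0.01 over all genes. By group, with the share of all genes tested as background, 12 were called in SFSN-EC (8 higher, 4 lower, background 33.3%, 17.7% higher and 15.6% lower), 10 in SFSN-Ot (7 higher, 3 lower, background 39.5%, 20.2% higher and 19.3% lower), 10 in SFSN-TC (7 higher, 3 lower, background 38.1%, 19.3% higher and 18.8% lower), 10 in SFSN-FB (7 higher, 3 lower, background 42.7%, 21.5% higher and 21.2% lower), 9 in SFSN-Neu (6 higher, 3 lower, background 38.1%, 20.1% higher and 17.9% lower) and 12 in SFSN-Adipo (8 higher, 4 lower, background 36.5%, 19.7% higher and 16.8% lower). The 6 comparisons share the 3 Control libraries. Asic3, Ano1 and Cacna1h rose in all 6 groups, and Hcn4, Cacna1i and Cacnb3 fell in all 6, with the limit that Hcn4 passed the filter through Control alone and could only be lower, while 14 genes were called in none and no gene rose in one group and fell in another. Without any overlap between libraries, 4 genes were higher in all 18 SFSN libraries than in Control (Asic3, Ano1, Cacna1h and Cacna1a), as were 9.81% of all genes tested, and 3 were lower (Hcn4, Cacna1i and Cacnb3), as were 11.2%. Per group 33.3% to 44.4% of the channel genes were called, against 33.3% to 42.7% of all genes. Of the 76 calls against Control, 54 held under every alternative setting tried.

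**Figure D2:**
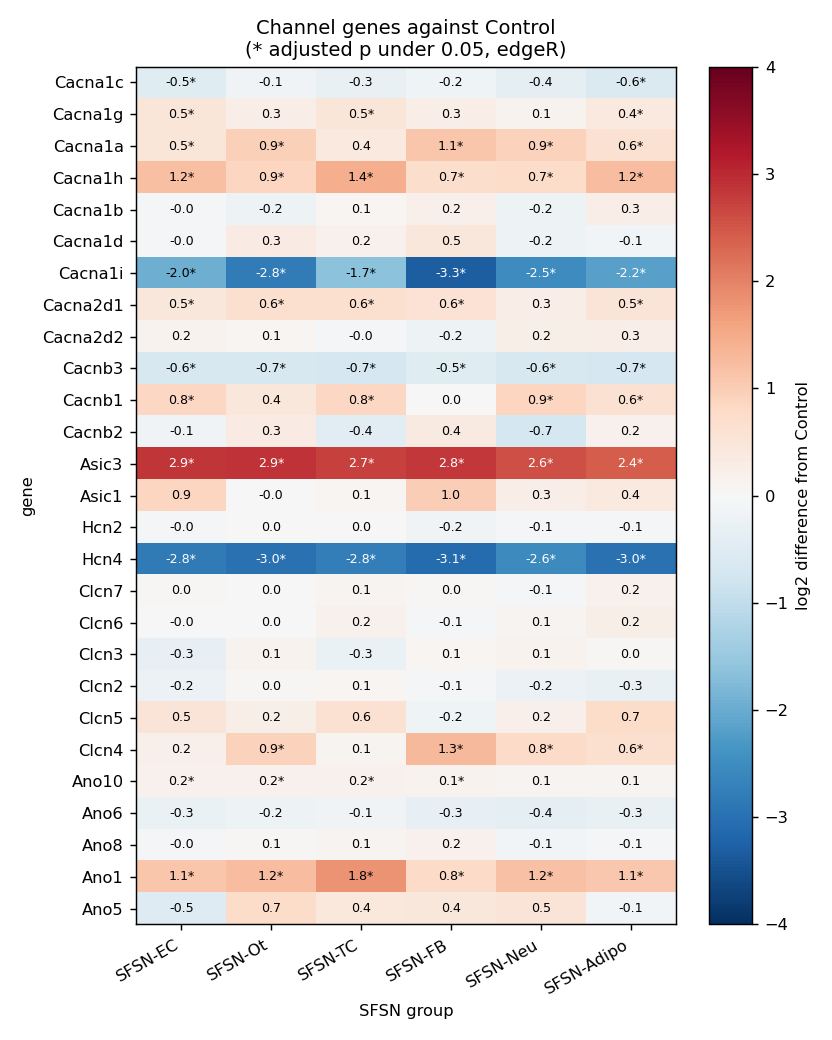
Log2 differences from Control of the 27 tested genes (rows) in the 6 SFSN groups (columns), coloured from blue (lower) to red (higher), with a star at an adjusted p under 0.05 (edgeR). Asic3 is red and Hcn4 and Cacna1i are blue across all 6 columns, and the other stars lie between -0.7 and 1.8.

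The 6 genes called in every group comprise an acid-sensing channel, a calcium-activated chloride channel, a pair of T-type pores, a beta subunit and a pacemaker channel. Promoter sequences were held for 3 of them, and are shown as those of genes called in every group, of which Ano1 and Asic3 rose and Cacnb3 fell: the 250 bases before the start of Ano1 (chr1:209329339-209329588, minus strand), Asic3 (chr4:11657368-11657617, minus strand) and Cacnb3 (chr7:131666301-131666550, plus strand), from RefSeq on the build GRCr8, written 5′ to 3′. Capitals mark the motif found, the GC box GGGCGG on either strand.
Ano1: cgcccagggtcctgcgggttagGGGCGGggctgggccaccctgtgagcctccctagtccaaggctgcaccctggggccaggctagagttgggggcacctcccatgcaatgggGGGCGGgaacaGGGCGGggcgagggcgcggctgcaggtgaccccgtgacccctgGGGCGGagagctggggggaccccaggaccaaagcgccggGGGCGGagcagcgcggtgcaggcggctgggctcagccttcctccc
Asic3: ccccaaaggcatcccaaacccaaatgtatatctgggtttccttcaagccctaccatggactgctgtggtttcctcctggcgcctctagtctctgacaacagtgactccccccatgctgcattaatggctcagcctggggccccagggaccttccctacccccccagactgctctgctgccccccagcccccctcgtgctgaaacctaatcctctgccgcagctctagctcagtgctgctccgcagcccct
Cacnb3: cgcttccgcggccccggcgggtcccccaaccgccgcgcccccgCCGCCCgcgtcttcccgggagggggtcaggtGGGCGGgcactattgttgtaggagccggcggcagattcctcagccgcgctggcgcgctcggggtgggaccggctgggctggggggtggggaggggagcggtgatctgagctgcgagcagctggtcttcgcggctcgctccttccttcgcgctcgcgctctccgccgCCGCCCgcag
Ano1, which rose, holds 5 GC boxes, Cacnb3, which fell, holds 3, and Asic3, which rose most, holds 0. The GC content of these windows is 74.8%, 76.4% and 60.4%. Over the 22 tested members with a sequence, 15 hold a GC box, against 32.4% of 27457 promoter windows of the same length. The 27457 windows were not limited to genes that passed the filter, and the share among tested genes was not counted. The cyclic AMP response element TGACGTCA was found in Clcn3 alone of the 22 (1.7% of all windows), the AP-1 motif TGANTCA in 0 (6.36%) and the motif TATAAA in Clcn7 alone (13.1%), all searched on both strands. A match is a description of the letters and not a binding site.

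Among the acid-sensing genes Asic3 rose most of all 27 tested members. Asic3 encodes the proton-gated sodium channel of sensory neurons that signal acid and ischaemic pain. Its level in Control was 4.41, 5.67 and 4.16 CPM. In the SFSN libraries it was 42.1, 31.8 and 29.1 in SFSN-EC, 34.8, 29.7 and 41.1 in SFSN-Ot, 32.0, 31.5 and 30.7 in SFSN-TC, 40.8, 29.0 and 31.6 in SFSN-FB, 27.1, 30.2 and 28.3 in SFSN-Neu, and 26.9, 26.7 and 23.4 in SFSN-Adipo. Every SFSN library lay above every Control library, with the lowest of them in SFSN-Adipo. The rise was 2.72 ± 0.16 on the log2 scale over the 6 groups (6.58-fold, adjusted p = 1.01e-10, edgeR), from 2.43 ± 0.18 in SFSN-Adipo to 2.89 ± 0.18 in SFSN-Ot, and no difference among the SFSN groups passed the test (adjusted p = 0.111, edgeR). In TPM, Asic3 went from 1.56 ± 0.140 in Control to between 12.9 ± 0.897 in SFSN-Adipo and 16.7 ± 2.46 in SFSN-Ot (SD, n = 3). TPM is not scaled by TMM and gave more higher calls in SFSN. Over the 6 groups limma on log2 TPM called 2571 of all genes higher and 761 lower, against 1563 and 1493 in edgeR. TPM changes between groups, here, in the markers above and in the sums below, are thus not on the scale of the edgeR differences. The gap between the scales also differed by gene. From Control to SFSN-EC, mean Asic3 went from 4.75 to 34.3 CPM and from 1.56 to 16.1 TPM. Mean Ano10 went from 136 to 154 CPM and from 39.9 to 50.1 TPM. The gap was thus larger for Asic3 than for Ano10, and the reason was not tested. Asic1, the subunit found throughout the brain, was at 3 to 13 counts per library and its difference of 0.43 ± 0.34 did not pass the test (adjusted p = 0.329, edgeR). Asic3 made up 83.1% of the summed ASIC TPM in Control and 97.2% to 98.6% in the SFSN groups, while the sum went from 1.88 ± 0.150 to between 13.3 ± 0.975 and 16.9 ± 2.41. The genes next to Asic3 on the GRCr8 map, Cdk5 (-0.12 ± 0.09, adjusted p = 0.279, edgeR) and Abcb8 (0.08 ± 0.06, adjusted p = 0.344, edgeR), were not called.

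**Figure D3:**
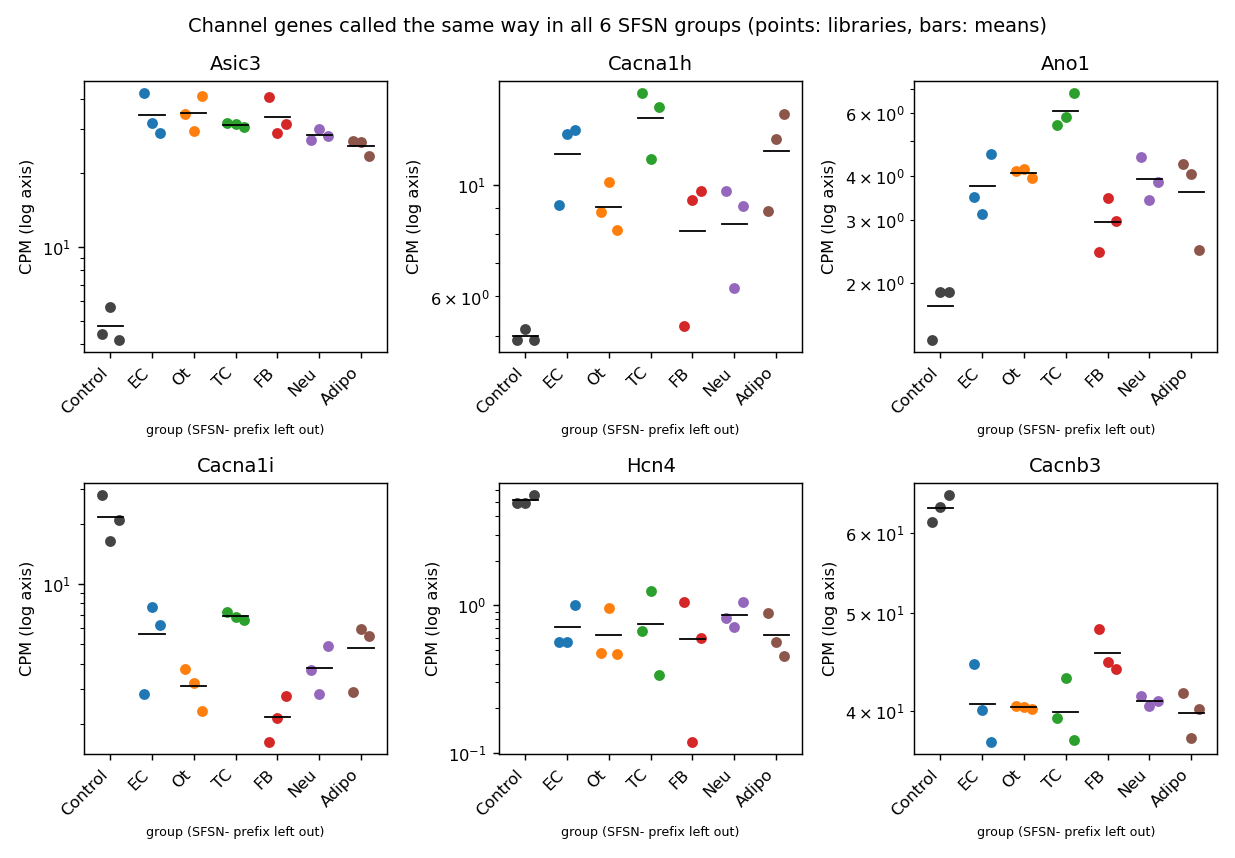
CPM by library (log axis) of the 6 genes called in the same direction in every SFSN group, 1 panel per gene, with points for libraries and bars for means of 3. Asic3, Cacna1h and Ano1 lie above Control in all 18 SFSN libraries, and Cacna1i, Hcn4 and Cacnb3 lie below it.

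HCN genes showed the converse in 1 member. Hcn4, the main pacemaker channel gene of the sinoatrial node, was at 4.91, 4.91 and 5.55 CPM in Control. It was at 0.564, 0.559 and 1.01 in SFSN-EC, 0.472, 0.953 and 0.464 in SFSN-Ot, 0.667, 1.24 and 0.335 in SFSN-TC, 1.05, 0.119 and 0.599 in SFSN-FB, 0.812, 0.706 and 1.05 in SFSN-Neu, and 0.886, 0.562 and 0.450 in SFSN-Adipo. All 18 SFSN libraries lay below all 3 Control libraries. In counts these were 39 to 44 per Control library and 1 to 11 per SFSN library, so Hcn4 passed the filter through Control alone, which left a fall as the outcome that could be tested, and its SFSN levels are imprecise. Hcn4 fell by 2.87 ± 0.27 on the log2 scale (7.30-fold lower, adjusted p = 7.96e-08, edgeR), from -2.56 ± 0.41 in SFSN-Neu to -3.08 ± 0.44 in SFSN-FB, and the SFSN groups did not differ by the test (adjusted p = 0.942, edgeR). With no filter on low counts the difference from Control was -2.86 (adjusted p = 5.06e-08, edgeR). Hcn2, the other tested member and a pacemaker channel gene of brain and heart, ranged from 13.9 to 18 CPM in SFSN and 14.7 to 17.9 in Control, a difference of -0.05 ± 0.08 that was not called (adjusted p = 0.619, edgeR). Since Hcn2 held 83.4% of the summed HCN TPM in Control and 91.3% to 94.3% in SFSN, the sum lay between 5.76 ± 0.584 and 6.80 ± 0.231 TPM, with 6.36 ± 0.340 in Control. The share of Hcn4 in it was 15.4% in Control and 2.04% to 3.02% in the SFSN groups. None of the CNG genes was tested.

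The T-type pores moved in opposite directions. Cacna1i, the T-type gene of thalamic neurons, fell, while Cacna1h and Cacna1g rose. Cacna1i was at 27.8, 16.4 and 20.9 CPM in Control. Across the SFSN groups it was at 2.82, 7.72 and 6.27 in SFSN-EC, 3.77, 3.22 and 2.32 in SFSN-Ot, 7.22, 6.86 and 6.59 in SFSN-TC, 1.63, 2.15 and 2.76 in SFSN-FB, 3.71, 2.83 and 4.89 in SFSN-Neu, and 2.88, 5.95 and 5.52 in SFSN-Adipo. The SFSN libraries all lay below Control, with the lowest mean in SFSN-FB, the highest mean in SFSN-TC and the highest single library in SFSN-EC 2. It fell by 2.4004 ± 0.2019 on the log2 scale over the 6 groups (5.28-fold lower, adjusted p = 1.93e-08, edgeR), with -1.65 ± 0.30 in SFSN-TC and -3.31 ± 0.35 in SFSN-FB. Cacna1h, a T-type gene of sensory neurons and the adrenal cortex, was at 4.91, 5.17 and 4.92 CPM in Control. The SFSN libraries held 9.14, 12.6 and 12.9 in SFSN-EC, 8.85, 10.1 and 8.12 in SFSN-Ot, 15.2, 11.2 and 14.3 in SFSN-TC, 5.24, 9.32 and 9.71 in SFSN-FB, 9.74, 6.24 and 9.09 in SFSN-Neu, and 8.87, 12.4 and 13.9 in SFSN-Adipo. The groups did not overlap with Control, although SFSN-FB 1 lay close to it. Cacna1h rose by 1.03 ± 0.20 (2.04-fold, adjusted p = 0.000306, edgeR), most in SFSN-TC (1.44 ± 0.24) and least in SFSN-FB (0.69 ± 0.24, adjusted p = 0.0288, edgeR) and SFSN-Neu (0.74 ± 0.24, adjusted p = 0.0223, edgeR). These last 2 calls were lost under 7 and 5 of the alternatives.

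Cacna1g, the T-type gene with the highest level here, was at 26.7 to 29.2 CPM in Control and 26.5 to 47.4 in SFSN, with 17 of 18 SFSN libraries above Control. It rose by 0.34 ± 0.10 over the 6 groups (adjusted p = 0.0137, edgeR), was called in SFSN-EC, SFSN-TC and SFSN-Adipo, and lost the call over the 6 groups without Control 1 (0.31, adjusted p = 0.0651, edgeR). The SFSN-EC call was lost without SFSN-EC 3 (0.32, adjusted p = 0.0686, edgeR). The SFSN-Adipo call was lost without Control 1, Control 3, SFSN-Adipo 2 or SFSN-Adipo 3 (adjusted p = 0.0542 to 0.142, edgeR). In shares of the summed T-type TPM, Control held 47.8% Cacna1g, 8.81% Cacna1h and 43.3% Cacna1i. SFSN-FB, at one end, held 75.9%, 18.2% and 5.88%, and SFSN-TC, at the other, 64.1%, 22.7% and 13.3%. The sums were 5.42 ± 0.678 TPM in Control, 4.33 ± 1.03 in SFSN-Neu, the lowest, and 6.62 ± 0.300 in SFSN-TC, the highest (SD, n = 3).

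**Figure D4:**
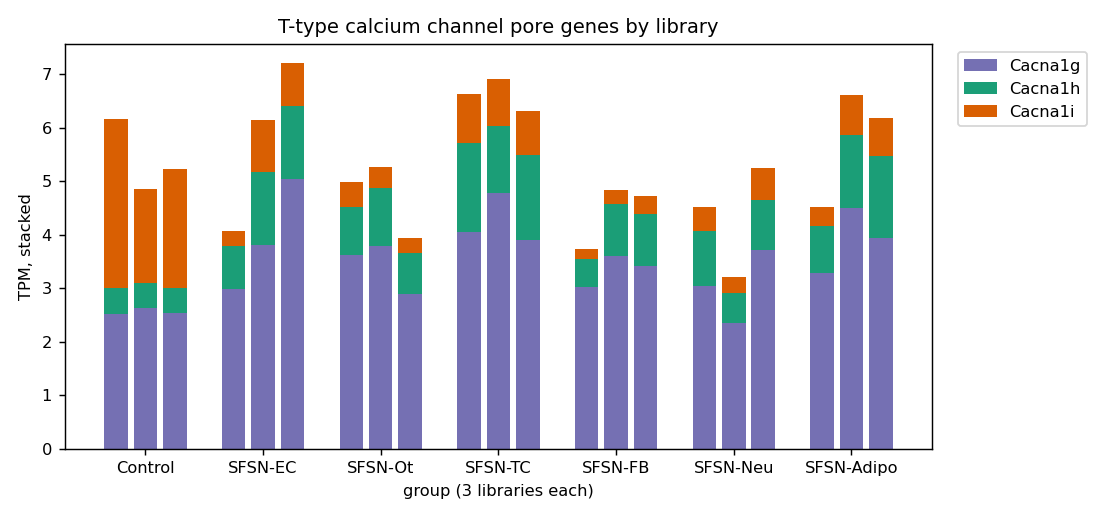
TPM of the 3 T-type pore genes stacked for each library, 3 bars per group. Cacna1i makes up 43.3% of the summed level in Control and 5.88% to 13.3% in the SFSN groups, while the height of the bars overlaps between Control and SFSN.

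Of the other pores, Cacna1a, the P/Q-type gene of presynaptic terminals, rose in 5 groups. It was at 11.1, 10.3 and 11.5 CPM in Control. In the treated groups the level was 13.5, 16.2 and 16.0 in SFSN-EC, 19.2, 26.6 and 17.6 in SFSN-Ot, 14.3, 16.0 and 13.1 in SFSN-TC, 19.7, 25.6 and 26.1 in SFSN-FB, 22.0, 19.7 and 20.3 in SFSN-Neu, and 14.0, 18.9 and 17.8 in SFSN-Adipo. All 18 SFSN libraries lay above Control. The rise was 0.75 ± 0.13 over the 6 groups (1.68-fold, adjusted p = 0.000101, edgeR), largest in SFSN-FB (1.12 ± 0.16), and 0.40 ± 0.16 in SFSN-TC, where it did not pass (adjusted p = 0.0576, edgeR). In SFSN-TC the replicate block and 3 other alternatives gave a call (adjusted p = 0.0055 to 0.0456), and in SFSN-EC the call (0.48 ± 0.16) was lost with limma on log2 TPM and without Control 1, Control 2, SFSN-EC 2 or SFSN-EC 3. Cacna1b, the N-type gene, differed by 0.02 ± 0.17 and was not called (adjusted p = 0.941, edgeR). Its level was 8.32 to 8.95 CPM in Control and 4.47 to 11.5 in SFSN, with the lowest in SFSN-Neu 2. Cacna1c, the L-type pore of heart and smooth muscle, fell by 0.34 ± 0.11 (adjusted p = 0.0217, edgeR) from 64.9 to 74.6 CPM in Control to 41.6 to 71.1 in SFSN. It was called in SFSN-EC (-0.49 ± 0.15) and SFSN-Adipo (-0.56 ± 0.15). The call over the 6 groups was lost with total-count scaling (-0.15, adjusted p = 0.294), with limma on log2 TPM (-0.19, adjusted p = 0.286), and in edgeR without Control 1 (-0.28, adjusted p = 0.115) or Control 3 (-0.32, adjusted p = 0.086). The same 4 settings ended the SFSN-EC call, as did leaving out SFSN-EC 1 (-0.37, adjusted p = 0.0833, edgeR). The SFSN-Adipo call was lost with total-count scaling (-0.36, adjusted p = 0.063) and with limma on log2 TPM (-0.28, adjusted p = 0.228). The smooth muscle marker sum was lower in SFSN as well, as given above. Acta2 made up most of it, with group means of 11911 TPM in Control and 8394 to 9372 in SFSN. Cald1 and Cnn1 were lower in every SFSN group, Lmod1 lay on both sides (70.0 against 52.7 to 70.7) and Des was higher (1.82 against 3.00 to 4.45). Their part in the Cacna1c result was not tested. Cacna1d, the other tested L-type pore, known from pancreatic and sinoatrial cells, differed by 0.10 ± 0.18 and was not called (adjusted p = 0.691, edgeR).

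Accessory subunits of the calcium channels went in both directions. Cacnb3, which supplied most of the beta subunit TPM, was at 61.6, 63.6 and 65.4 CPM in Control. Among the SFSN libraries it was 44.5, 40.1 and 37.3 in SFSN-EC, 40.5, 40.4 and 40.2 in SFSN-Ot, 39.3, 43.1 and 37.4 in SFSN-TC, 48.2, 44.7 and 44.0 in SFSN-FB, 41.4, 40.5 and 40.9 in SFSN-Neu, and 41.7, 37.6 and 40.2 in SFSN-Adipo. No SFSN library reached the Control range, and the SFSN-FB libraries were 3 of the 4 highest of the 18. It fell by 0.63 ± 0.05 (1.54-fold lower, adjusted p = 1.03e-08, edgeR), between -0.48 ± 0.07 in SFSN-FB and -0.67 ± 0.07 in SFSN-Adipo. Cacnb1, the beta subunit of the skeletal muscle channel, was at 4.41, 3.28 and 3.40 CPM in Control. Across the SFSN groups it was at 5.30, 7.27 and 7.05 in SFSN-EC, 5.07, 6.43 and 3.60 in SFSN-Ot, 6.44, 6.53 and 6.70 in SFSN-TC, 3.84, 3.58 and 3.71 in SFSN-FB, 7.19, 6.24 and 6.87 in SFSN-Neu, and 5.87, 5.73 and 5.29 in SFSN-Adipo. SFSN-FB lay within the Control range and the other groups mostly above it. Cacnb1 rose by 0.60 ± 0.15 over the 6 groups (adjusted p = 0.00282, edgeR), with calls in SFSN-EC, SFSN-TC, SFSN-Neu and SFSN-Adipo of 0.61 to 0.87 and a difference of 0.01 ± 0.19 in SFSN-FB (adjusted p = 0.982, edgeR). The SFSN-Adipo call was lost without Control 2 (0.54, adjusted p = 0.0606, edgeR) or Control 3 (0.56, adjusted p = 0.0538, edgeR). Of the 5 skeletal muscle markers, whose sum is given above, 2 passed the filter, 2 (Ckm and Chrna1) had at most 10 counts in every library and 0 were without counts, and their part in the result was not tested. Cacnb3 made up 94.1% of the beta subunit TPM in Control and 87.2% to 91.1% in SFSN, and the beta sum was 21.2 ± 0.517 TPM in Control and 16.0 ± 1.41 to 17.3 ± 0.226 in SFSN (SD, n = 3).

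Cacnb2, the beta subunit gene of the heart, was at 1.76, 1.64 and 1.89 CPM in Control, or 13 to 15 counts. The SFSN libraries held 1.35, 1.57 and 1.90 in SFSN-EC, 1.89, 2.62 and 2.21 in SFSN-Ot, 1.67, 1.01 and 1.23 in SFSN-TC, 2.56, 1.91 and 2.397 in SFSN-FB, 1.16, 0.942 and 1.17 in SFSN-Neu, and 2.33, 1.12 and 2.48 in SFSN-Adipo. All 3 SFSN-Neu libraries lay below Control, and every SFSN-Ot and SFSN-FB library lay above the Control mean. No group differed from Control by the test (mean -0.06 ± 0.21, adjusted p = 0.851, edgeR). Cacna2d1, the alpha2delta gene whose protein binds gabapentin, was at 178, 152 and 155 CPM in Control. In the treated groups the level was 153, 262 and 254 in SFSN-EC, 264, 277 and 214 in SFSN-Ot, 243, 254 and 259 in SFSN-TC, 207, 258 and 257 in SFSN-FB, 219, 150.2 and 220.3 in SFSN-Neu, and 206, 241 and 243 in SFSN-Adipo. SFSN-EC 1 and SFSN-Neu 2, the libraries that stood apart most, were the only SFSN libraries not above Control. Cacna2d1 rose by 0.52 ± 0.14 over the 6 groups (adjusted p = 0.00527, edgeR) and in each group except SFSN-Neu (0.28 ± 0.17, adjusted p = 0.231, edgeR). Without those 2 libraries SFSN-Neu was called too (0.44, adjusted p = 0.00388, edgeR). The SFSN-EC call (0.46 ± 0.17, adjusted p = 0.0498, edgeR) was lost under 10 alternatives, among them the replicate block (0.45, adjusted p = 0.071, edgeR). The SFSN-Adipo call was lost without Control 2, Control 3, SFSN-Adipo 2 or SFSN-Adipo 3 (adjusted p = 0.0796 to 0.0859, edgeR), and the SFSN-FB call with limma on log2 TPM (0.69, adjusted p = 0.0511). Cacna2d2, the alpha2delta gene of cerebellar and lung tissue, differed by 0.08 ± 0.13 and was not called (adjusted p = 0.645, edgeR).

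Among the anoctamins the calcium-activated chloride channel gene Ano1 moved most. It was at 1.39, 1.89 and 1.89 CPM in Control, or 11 to 15 counts. Among the SFSN libraries it was 3.50, 3.13 and 4.59 in SFSN-EC, 4.13, 4.17 and 3.95 in SFSN-Ot, 5.55, 5.85 and 6.81 in SFSN-TC, 2.44, 3.46 and 3.00 in SFSN-FB, 4.53, 3.41 and 3.84 in SFSN-Neu, and 4.32, 4.04 and 2.48 in SFSN-Adipo. All SFSN libraries lay above Control, and the 3 of SFSN-TC above the other 15. Ano1 rose by 1.20 ± 0.19 over the 6 groups (2.29-fold, adjusted p = 4.95e-05, edgeR), from 0.78 ± 0.24 in SFSN-FB to 1.81 ± 0.22 in SFSN-TC. The SFSN-FB call was lost without Control 1 (0.65, adjusted p = 0.0726, edgeR) or SFSN-FB 2 (0.66, adjusted p = 0.0771, edgeR). Ano10, whose loss causes a cerebellar ataxia in humans, rose by 0.15 ± 0.04 (adjusted p = 0.0056, edgeR), from 129 to 139.7 CPM in Control to 136 to 164 in SFSN. It was called in SFSN-EC, SFSN-Ot, SFSN-TC and SFSN-FB, and without Control 3 in none of these and not over the 6 groups (0.12, adjusted p = 0.051, edgeR). Ano6 was at 337 to 408 CPM in Control and 217 to 345 in SFSN, lowest in SFSN-Neu 2 and SFSN-EC 1, and its difference of -0.27 ± 0.11 was not called (adjusted p = 0.0657, edgeR). Without those 2 libraries it was called (-0.21, adjusted p = 0.00978, edgeR). It was also called without SFSN-EC 1 alone (-0.23, adjusted p = 0.0335, edgeR) or SFSN-EC 2 alone (-0.28, adjusted p = 0.0486, edgeR). DESeq2 (-0.27, adjusted p = 0.0498) and edgeR with the gene length trend removed (-0.33, adjusted p = 5.36e-05) called it as well. Ano8 (0.01 ± 0.08, adjusted p = 0.901, edgeR) and the muscle membrane repair gene Ano5 (0.24 ± 0.29, adjusted p = 0.556, edgeR) were not called.

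Of the CLC genes only Clcn4, an endosomal chloride-proton exchanger, was called in the mean of the 6 groups. Clcn4 was at 3.15, 2.90 and 1.76 CPM in Control, or 14 to 25 counts. Across the SFSN groups it was at 2.14, 3.02 and 3.92 in SFSN-EC, 5.54, 5.00 and 4.18 in SFSN-Ot, 3.00, 2.70 and 2.68 in SFSN-TC, 5.00, 6.93 and 7.19 in SFSN-FB, 4.76, 4.12 and 4.31 in SFSN-Neu, and 3.66, 4.04 and 4.39 in SFSN-Adipo. SFSN-TC overlapped with Control, SFSN-EC did so in 2 of its 3 libraries, and the other 12 libraries lay above it. Clcn4 rose by 0.65 ± 0.19 (adjusted p = 0.00786, edgeR), with calls in SFSN-FB (1.29 ± 0.22), SFSN-Ot (0.91 ± 0.23), SFSN-Neu (0.75 ± 0.23) and SFSN-Adipo (0.63 ± 0.23, adjusted p = 0.0417, edgeR). Without Control 3, the lowest Control library, the mean over the 6 groups was 0.45 (adjusted p = 0.0833, edgeR), and the SFSN-Adipo and SFSN-Neu calls were lost. The lysosomal Clcn7, which osteoclasts need to resorb bone, differed by 0.05 ± 0.06, the late endosomal Clcn6 by 0.07 ± 0.10 and the endosomal Clcn3 by -0.03 ± 0.13. Clcn5, the exchanger of kidney endosomes, differed by 0.36 ± 0.38, and Clcn2, a surface channel opened by hyperpolarization, by -0.12 ± 0.18. None of these 5 was called over the 6 groups or in a single group. Clcn5 was at 1.81 CPM in SFSN-EC 1 and 1.77 in SFSN-Neu 2, the lowest of all 21 libraries, and without these libraries it was called in SFSN-EC (0.93, adjusted p = 0.0437, edgeR). With total-count scaling Clcn6 (0.26, adjusted p = 0.0344), Clcn7 (0.24, adjusted p = 0.00237) and Ano8 (0.21, adjusted p = 0.0421) were also called, a scaling that moved the median of all genes by up to 0.21.

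The SFSN groups differed from each other in 7 of the 27 genes by the edgeR F test over the 6 groups, 25.9% against 34.1% of all genes tested. These were Clcn4 (adjusted p = 0.00244), Cacna1a (0.00419), Cacnb1 (0.00695), Ano1 (0.0112), Cacna1i (0.0118), Cacnb2 (0.0244) and Cacna1h (0.049). Each group was then set against the average of the remaining 5. SFSN-TC had 5 genes called, 3 higher and 2 lower (background 15.6%, 7.64% higher and 7.91% lower). SFSN-FB had 6, 3 higher and 3 lower (background 24.2%, 12% higher and 12.2% lower). SFSN-Neu had 1, lower (background 12.2%, 6.7% higher and 5.48% lower). SFSN-EC (background 6.01%, 3.17% higher and 2.84% lower), SFSN-Ot (background 15%, 7.9% higher and 7.1% lower) and SFSN-Adipo (background 10.5%, 5.71% higher and 4.78% lower) had 0 in edgeR, with 5, 4 and 3 genes at an unadjusted p under 0.05, and 0 in DESeq2 and in limma on log2 TPM.

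In Ano1, Cacna1i, Cacna1h, Clcn4 and Cacna1a, SFSN-TC and SFSN-FB held opposite ends of the SFSN group means. SFSN-EC lay near SFSN-TC in Clcn4 (means of 3.03 and 2.79 CPM) and Cacna1a (15.3 and 14.5 CPM). SFSN-TC was higher in Ano1 (0.73 ± 0.15, adjusted p = 0.00218, edgeR), Cacna1i (0.90 ± 0.24, adjusted p = 0.0178, edgeR) and Cacna1h (0.50 ± 0.16, adjusted p = 0.0482, edgeR), and lower in Clcn4 (-0.66 ± 0.18, adjusted p = 0.0191, edgeR) and Cacna1a (-0.42 ± 0.12, adjusted p = 0.0261, edgeR). SFSN-FB was higher in Clcn4 (0.76 ± 0.16, adjusted p = 0.00143, edgeR), Cacna1a (0.44 ± 0.11, adjusted p = 0.00676, edgeR) and Cacnb3 (0.18 ± 0.05, adjusted p = 0.02, edgeR). It was lower in Cacna1i (-1.09 ± 0.31, adjusted p = 0.0133, edgeR), Cacnb1 (-0.71 ± 0.15, adjusted p = 0.00152, edgeR) and Ano1 (-0.50 ± 0.17, adjusted p = 0.0403, edgeR). This Ano1 call was lost under 15 alternatives, among them the replicate block (-0.50, adjusted p = 0.0593, edgeR), DESeq2 (-0.50, adjusted p = 0.0896) and leaving out SFSN-FB 1 (-0.38, adjusted p = 0.228, edgeR). SFSN-TC and SFSN-FB enter each other's comparison group, so the opposite signs are not independent. SFSN-Neu was lower in Cacnb2 (-0.75 ± 0.23, adjusted p = 0.0438, edgeR), with 0 genes called in DESeq2 and in limma on log2 TPM and 3 at an unadjusted p under 0.05 in edgeR, and this call was lost under 19 alternatives.

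The count for SFSN-TC fell from 5 to 1 without SFSN-TC 1, to 2 without SFSN-TC 2 and to 1 without SFSN-TC 3. Ano1 in SFSN-TC, and Cacnb1 and Clcn4 in SFSN-FB, were called under every alternative run. The other SFSN-TC calls were lost under 11 (Cacna1h), 4 (Clcn4) and 3 (Cacna1i and Cacna1a) alternatives, and the remaining SFSN-FB calls under 3 (Cacna1a) and 2 (Cacna1i and Cacnb3). In the F test among the SFSN groups, the call of Cacna1h was lost under 16 alternatives, the replicate block included (adjusted p = 0.055, edgeR), that of Cacnb2 under 7, and those of Ano1, Cacna1i and Cacna1a under 1 each.

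**Figure D5:**
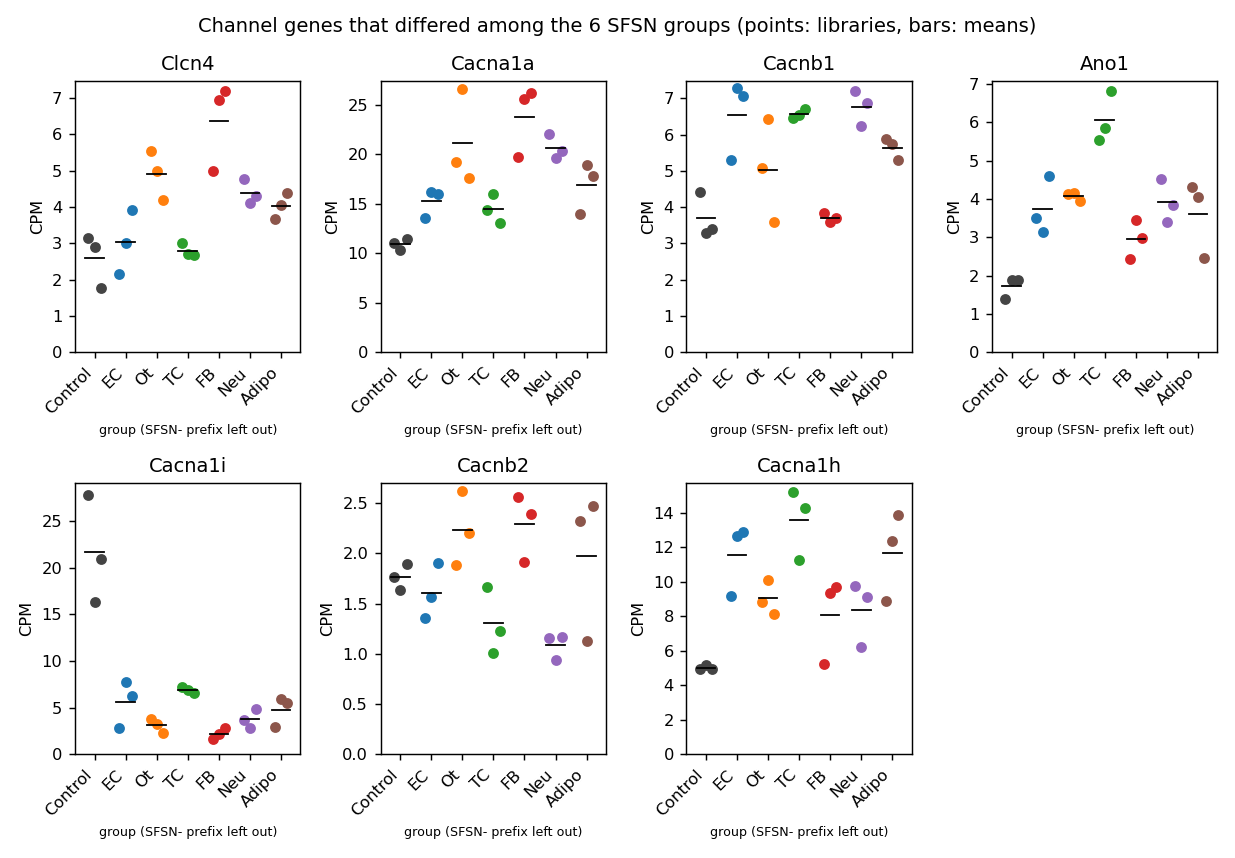
CPM by library (linear axis from 0) of the 7 genes that differed among the SFSN groups, 1 panel per gene, with points for libraries and bars for means of 3. SFSN-TC is highest in Ano1, and SFSN-FB is highest in Clcn4 and lowest in Cacna1i.

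Genes that work beside these channels were read from 3 further lists, in the mean of the 6 SFSN groups against Control. All tests were edgeR, and the background was 45.9% of all genes tested, 23.5% higher and 22.4% lower. Of 29 tested genes of calcium stores, pumps and sensors 15 fell and 3 rose, with a median log2 difference of -0.26. Those that fell most among genes of at least 10 CPM were the calmodulin kinase kinase gene Camkk1 (-0.76 ± 0.07), the calsequestrin gene Casq2 (-0.75 ± 0.11), the neuronal calcium sensor gene Hpcal1 (-0.72 ± 0.05) and Jph2, which joins calcium stores to the surface membrane (-0.71 ± 0.03). The 3 that rose, named here after their values were seen, were the store pump gene Atp2a3 (1.48 ± 0.19), the inositol trisphosphate receptor gene Itpr2 (0.64 ± 0.11) and the mitochondrial gene Letm1 (0.25 ± 0.10). Of 10 tested genes of other chloride channels 5 rose and 4 fell (median 0.07). The volume-regulated channel genes split, with Lrrc8b (0.61 ± 0.11) and Lrrc8e (0.60 ± 0.08) higher and the obligatory subunit gene Lrrc8a (-0.51 ± 0.05) lower, as was Clic4 (-0.63 ± 0.17). Of 19 tested genes of cyclic nucleotide synthesis and targets 4 rose and 4 fell (median -0.02), among them the adenylyl cyclase genes Adcy2 (0.59 ± 0.08), Adcy4 (0.42 ± 0.08) and Adcy7 (0.40 ± 0.06), higher, and the transcription factor gene Creb1 (-0.38 ± 0.08), lower.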

How the data were processed

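RNA from 21 libraries was analysed from 1 gene table. The authors filtered reads with SOAPnuke 2.2.1, mapped with HISAT2 2.2.1 to Rnor_6.0 and with Bowtie2 2.4.5 to annotated transcripts with up to 200 alignments per read (annotation release not given in the sources used here), and quantified them with RSEM 1.3.1 (forward probability 0, the reverse-stranded setting), per the submitters' processing notes and the readme. Per the file headers, the authors deposited expected counts, TPM, FPKM and normalized counts. The expected counts were rounded to whole numbers. The TPM served for levels between genes and for an alternative test, and the FPKM with the counts for gene length. The 21 columns of normalized counts and the group means were not used. Genes after Map2k1 in the alphabet were not analysed here, and the results of some genes and of 1 partner list are not reported here.

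Genes were filtered with filterByExpr and scaled by TMM, and 1 mean per group was fitted in edgeR 4.0.16 (R 4.3.3), with 14 residual degrees of freedom and a coefficient of variation between replicates of 11.8%. The contrasts were the mean of the 6 SFSN groups against Control, each group against Control, each against the other 5 SFSN groups, and an F test among these 6. The SE is the log2 difference divided by the square root of F. No set test was run. Alternatives were DESeq2 1.42.0, its RLE size factors, total-count scaling, no filter, limma 3.58.1 on log2(TPM + 0.5), a fit of only the 2 groups compared, a replicate block, removal of a gene length trend and leaving out each library. The fit without SFSN-EC 1 and SFSN-Neu 2 was added after seeing the data. The code was tested on simulated data.

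The members and gene lists were chosen with earlier results of these data known. All tested members were named. Values in every library were given for members called in the mean of the 6 SFSN groups with a log2 difference of at least 0.5 in size or called in the F test, and from each partner list shown up to 4 called genes of at least 10 CPM with the largest differences were named. Depth limits precision: in members with few counts the spread between libraries includes counting error.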

Additional observations from a re-analysis of the deposited data

Results flagged for a closer look

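The members of the following set are listed because their effect differed between the SFSN groups in the F test over the 6 groups (adjusted p, edgeR, over all genes tested). Clcn4 (0.00244) was highest in SFSN-FB and lowest in SFSN-TC. Cacna1a (0.00419) was highest in SFSN-FB and lowest in SFSN-TC. Cacnb1 (0.00695) was highest in SFSN-Neu and lowest in SFSN-FB. Ano1 (0.0112) and Cacna1i (0.0118) were highest in SFSN-TC and lowest in SFSN-FB. Cacnb2 (0.0244) was lowest in SFSN-Neu. Cacna1h (0.049) was highest in SFSN-TC and lowest in SFSN-FB. Of all genes tested 34.1% differed in this test, against 25.9% of the channel genes.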

How the results depend on the processing

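Against Control, 54 of the 76 calls of channel genes were kept under every alternative run, and 0 changed direction. Over the 6 SFSN groups these were Ano1, Asic3, Cacna1a, Cacna1h, Cacna1i, Cacna2d1, Cacnb1, Cacnb3 and Hcn4. Hcn4 passed the low-count filter through Control alone, so its kept calls could only be lower. With 1 library left out at a time, the count of called genes was 10 to 14 over the 6 groups, 8 to 11 in SFSN-EC, 9 to 12 in SFSN-Ot, 9 to 10 in SFSN-TC, 7 to 9 in SFSN-FB, 7 to 9 in SFSN-Neu and 8 to 12 in SFSN-Adipo. With total-count scaling SFSN-Neu had 14 (11 higher). That scaling moved the median of all genes by -0.04 to 0.21 over the 13 contrasts, and the share of higher calls among all genes called against Control to 74.3% to 82.5%, from 50.4% to 53.9%. Removing the gene length trend tilted calls the other way. Over the 6 groups 1498 of all genes were then called higher and 2029 lower, against 1563 and 1493. Ano6 was then also called lower in single groups, SFSN-EC, SFSN-FB, SFSN-Neu and SFSN-Adipo among them.

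Among the SFSN groups 5 of 19 calls were kept under every alternative, and 0 changed direction. Leaving out 1 library gave 0 to 1 called genes in SFSN-EC, SFSN-Ot and SFSN-Adipo, 1 to 5 in SFSN-TC, 4 to 6 in SFSN-FB, 0 to 2 in SFSN-Neu and 5 to 8 in the F test. With the length trend removed the counts were 2 in SFSN-EC, 1 in SFSN-Ot, 10 in SFSN-FB (7 higher), 3 in SFSN-Neu, 2 in SFSN-Adipo and 12 in the F test. With limma on log2 TPM they were 2 in SFSN-TC, 0 in SFSN-Neu and 3 in the F test. SFSN-Neu also had 0 with total-count scaling, with no filter on low counts and in DESeq2. Without SFSN-EC 1 and SFSN-Neu 2 there was 1 in SFSN-EC and 0 in SFSN-Neu. The cause of these changes was not tested.

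Same-numbered replicates did not deviate together. The correlation of their deviations ran from -0.356 to 0.434 over 63 pairs, with 16 over 0.1, so the numbers were not taken to pair the samples. With the replicate block the counts were 13 over the 6 groups, 11, 10, 11, 10, 9 and 11 in SFSN-EC, SFSN-Ot, SFSN-TC, SFSN-FB, SFSN-Neu and SFSN-Adipo against Control, 5 in SFSN-TC and 5 in SFSN-FB against the other SFSN groups, and 6 in the F test. Depth limits Hcn4, Ano1, Asic1, Ano5, Cacnb2 and Clcn4 most, with at most 61 counts in any library.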
